A study of Homo sapiens with 8 samples.

Results

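Long noncoding RNAs were followed in 2 stable clones of LN229, a human glioblastoma cell line, with a symbol of the LINC series (long intergenic noncoding RNA) or of the SNHG series (small nucleolar RNA host gene). The members were selected on their level: they are the 176 genes with such a symbol whose raw counts sum to 80 or more over the 8 libraries, of 895 such symbols among 26364 genes. They comprise 157 LINC and 19 SNHG genes, while 439 of the 895 symbols had 0 counts in each library. The summed counts just inside this minimum were 81, 82 and 86, and those just outside were 75, 75 and 76. All 176 members passed the filter on low counts and were tested.

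In clone Surv-GFP (D6) a stably integrated plasmid encodes an eGFP fusion of Survivin whose nuclear export sequence (NES) is functional, whereas in clone SurvNESmut-GFP (L2) the NES of this fusion is mutated. Cells of both clones were either untreated or received 50 µM temozolomide (TMZ), a methylating anticancer drug, for 48 h, and total RNA was sequenced in 2 libraries per group, lettered a and b. Both clones were picked for resistance to G418 and retain the endogenous Survivin gene BIRC5. Each construct is represented by a single G418-resistant clone, so that clone and construct cannot be told apart. The paper describes independent biological replicates, each with technical duplicates, whereas 2 libraries per group were at hand and the labels do not say which kind the letters mark. If they are technical duplicates, p-values measure technical spread only.

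SNHG transcripts are spliced RNAs whose introns release small nucleolar RNAs (snoRNAs), which guide the chemical modification of ribosomal RNA, and small Cajal body RNAs (scaRNAs). The spliced exons carry little coding potential, many of them begin with a 5′ terminal oligopyrimidine (TOP) tract as ribosomal protein mRNAs do, and several are known substrates of nonsense-mediated decay, which removes RNAs with premature stop codons while they are translated. LINC genes have no common mechanism: NORAD (LINC00657) sequesters PUMILIO proteins, PURPL (LINC01021) is induced by p53, and some former LINC genes encode small proteins. TMZ damages DNA and activates p53 in cells with an intact pathway.

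Of the 176 members, 163 are listed as lncRNA and 12 as protein-coding in the current RefSeq annotation, and 40 have a new symbol there. The latter are given here by the symbol of the count file, with the new symbol where it is informative. Each of the 19 SNHG members holds at least 1 snoRNA or scaRNA gene in GENCODE release 29. For 61 members, exons overlap those of another gene in that release, and the sources used here do not say whether strand was recorded. Reads labelled ambiguous were counted apart from the genes, but the rule for this label is not given. Reads of these 61 members can therefore not be told apart with certainty from those of the partner.

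The start regions of the SNHG members are shown because the TOP tract is the sequence that this family is known for. RefSeq promoter windows (GRCh38.p14, 250 bases before to 50 after the annotated start) were at hand for 15 SNHG and 114 LINC members. A TOP tract was defined as a C within 5 bases of the start that at least 4 further C or T follow, on the strand of the gene only. It was found in 9 of 15 SNHG windows (60%) and in 27 of 114 LINC windows (23.7%), against 5749 of all 27305 windows (21.1%) and 49 of 63 windows of ribosomal protein genes (77.8%). Printed below are the 25 bases before and the 25 bases from the start of 9 SNHG members whose changes are described further on. Capitals mark the TOP tract in the first 7 sequences and, in SNHG1 and SNHG11, which hold no such tract, the first transcribed base.
SNHG17, chr20:38435304-38435353, minus strand: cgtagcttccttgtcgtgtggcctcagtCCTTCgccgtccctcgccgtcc
SNHG12, chr1:28581849-28581898, minus strand: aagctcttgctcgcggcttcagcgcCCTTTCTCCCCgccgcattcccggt
SNHG8, chr4:118278737-118278786, plus strand: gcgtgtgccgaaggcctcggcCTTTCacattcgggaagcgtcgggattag
SNHG5, chr6:85678709-85678758, minus strand: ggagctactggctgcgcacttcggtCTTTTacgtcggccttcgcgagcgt
SNHG7, chr9:136728160-136728209, minus strand: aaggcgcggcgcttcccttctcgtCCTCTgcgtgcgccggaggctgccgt
SNHG4, chr5:139274076-139274125, plus strand: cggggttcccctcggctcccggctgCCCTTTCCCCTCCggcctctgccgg
SNHG16, chr17:76557739-76557788, plus strand: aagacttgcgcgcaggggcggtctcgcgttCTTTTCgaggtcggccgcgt
SNHG1, chr11:62855861-62855910, minus strand: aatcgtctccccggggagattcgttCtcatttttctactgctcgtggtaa
SNHG11, chr20:38446629-38446678, plus strand: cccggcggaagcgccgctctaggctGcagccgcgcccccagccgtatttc

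The SNHG windows differed from the LINC windows in further features. A TATA box (TATA, then A or T, A, and A or T, within 40 to 16 bases before the start, on the strand of the gene) was found in 4 of 15 SNHG windows (26.7%), namely those of SNHG5, SNHG7, SNHG12 and SNHG19. The share was 1.75% in LINC windows and 2.25% in all windows. A ratio of observed to expected CpG of at least 0.6, the usual mark of a CpG island, was reached by 93.3% of SNHG windows, 50.0% of LINC windows and 49.0% of all windows.

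The p53 response element was searched as 2 half-sites of its consensus with a spacer of at most 13 bases, a motif that reads alike on both strands. It was found in 8 of 27305 windows (0.0293%), in no SNHG window and in 1 of 114 LINC windows. This is the window of LINC01021 (PURPL, plus strand, lncRNA), which is shown whole with the 20 bases of the element in capitals.
LINC01021, chr5:27472042-27472341: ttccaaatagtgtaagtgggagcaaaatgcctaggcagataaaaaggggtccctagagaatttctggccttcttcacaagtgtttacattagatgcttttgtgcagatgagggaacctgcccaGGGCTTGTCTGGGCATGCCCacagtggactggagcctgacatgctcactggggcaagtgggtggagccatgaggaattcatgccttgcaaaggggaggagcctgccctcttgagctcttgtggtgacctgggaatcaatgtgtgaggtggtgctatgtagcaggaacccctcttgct

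Reads counted on genes ranged from 15826923 to 18861603 per library, and members took 0.220 to 0.272% of them. Values are given as CPM, read counts relative to library size after TMM scaling, as the mean ± SD (n = 2) or for libraries a and b in this order, and changes as log2 fold change ± SE (n = 2 per group) from edgeR's quasi-likelihood F test. A gene was called at a Benjamini-Hochberg adjusted p of 0.05 over all 14201 tested genes. BIRC5, which takes up reads of the endogenous gene and of the plasmid alike, stood at 1133 ± 27.9 CPM without and 1984 ± 64.6 CPM with TMZ in Surv-GFP cells. Its level in SurvNESmut-GFP cells was 411 ± 5.22 CPM without and 258 ± 6.89 CPM with TMZ, so that the gap between the clones was wider with TMZ. The exposed SurvNESmut-GFP libraries differed more from each other than those of the other groups. Their chi-square per degree of freedom was 5.74 against at most 2.66, and reads outside genes made up 14.3% and 12.1% of all their counts, on genes or not. The part of BIRC5 level and of this spread in the results was not tested. The line markers VIM, CD44, NES, EGFR, SOX2 and OLIG2 were each counted in every library, while GFAP had 0 to 17 counts. Of 8 markers of other cell types, AIF1 was at 0 in each library, PTPRC, PECAM1, CDH5, EPCAM and ALB had at most 7 counts, and VWF and CD68 had 3 to 16 and 216 to 357 counts.

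To examine how TMZ affected these RNAs in the clone with a functional NES, exposed and untreated Surv-GFP cells were compared. The paper reports that the Surv-GFP fusion protein accumulated in the nucleus upon TMZ. Exposed Surv-GFP cells can therefore not be taken as cells with Survivin in the cytoplasm alone. SNHG15, SNHG11, SNHG17, SNHG12 and SNHG1 rose by about 1 or more on the log2 scale, and 10 of 19 SNHG members rose in all, while 3 fell (5 with a filter of 1 CPM in 2 libraries). Over all tested genes 30.1% were called higher and 28.9% lower. Summed over the family, SNHG RNA stood at 821 ± 3.15 CPM without and 1056 ± 22.4 CPM with TMZ, and these groups did not overlap. The median log2 fold change was 0.33 for SNHG members, -0.05 for LINC members and 0.00 for all tested genes.

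SNHG15, host of SNORA9, showed the highest log2 fold change of the family. Its level was 8.67 and 7.73 CPM in untreated and 21.9 and 23.0 CPM in exposed Surv-GFP cells, a change of 1.45 ± 0.11 (adjusted p = 1.2e-08). In SurvNESmut-GFP cells it was 5.37 and 6.06 CPM without and 6.25 and 5.11 CPM with TMZ, so that the exposed Surv-GFP libraries stood above the other 6. The change in SurvNESmut-GFP was 0.00 ± 0.15 (adjusted p = 0.99), and the difference between the TMZ effects was -1.45 ± 0.19 (adjusted p = 2e-05).

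A similar order was seen for SNHG1, which hosts several box C/D snoRNAs. SNHG1 was counted at 62.0 and 60.6 CPM in untreated and 126 and 118 CPM in exposed Surv-GFP cells, against 49.7 and 59.2 CPM without and 63.6 and 56.9 CPM with TMZ in SurvNESmut-GFP cells. Its change was 0.99 ± 0.07 (adjusted p = 5.5e-09) in Surv-GFP and 0.15 ± 0.08 (adjusted p = 0.15) in SurvNESmut-GFP. The groups of Surv-GFP did not overlap, whereas those of SurvNESmut-GFP did.

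SNHG17 and SNHG11 lie side by side on chromosome 20 and host members of the SNORA71 family. SNHG17 rose from 36.5 and 32.5 to 79.6 and 73.1 CPM in Surv-GFP cells (1.15 ± 0.08, adjusted p = 3.6e-09) and from 48.2 and 49.8 to 62.0 and 52.2 CPM in SurvNESmut-GFP cells (0.22 ± 0.08, adjusted p = 0.036). SNHG11 rose from 10.5 and 11.9 to 27.6 and 24.5 CPM (1.22 ± 0.10, adjusted p = 2.1e-08) and from 14.04 and 13.4 to 17.8 and 16.9 CPM (0.33 ± 0.10, adjusted p = 0.017) in the same order. Both responses were smaller in SurvNESmut-GFP, with a difference between the TMZ effects of -0.92 ± 0.11 for SNHG17 and -0.89 ± 0.14 for SNHG11 (adjusted p = 1e-05 and 0.00015). Both RNAs were higher in SurvNESmut-GFP than in Surv-GFP before exposure and lower after it. Their rise in SurvNESmut-GFP was no longer called when either untreated library or exposed library a of this clone was left out. The untreated difference of SNHG11 was not called when untreated library a of Surv-GFP or either untreated library of SurvNESmut-GFP was left out.

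The other SNHG members that rose in Surv-GFP cells hold snoRNA or scaRNA genes as well. SNHG12, host of 4 snoRNAs, went from 10.4 and 9.49 to 23.5 and 19.1 CPM in Surv-GFP (1.10 ± 0.12) and from 7.75 and 7.83 to 12.6 and 10.8 CPM in SurvNESmut-GFP (0.59 ± 0.14), and was called in both (adjusted p = 6.3e-07 and 0.003). SNHG8, host of SNORA24, went from 30.7 and 28.6 to 52.5 and 52.8 CPM in Surv-GFP (0.83 ± 0.07, adjusted p = 4.1e-08) and was not called in SurvNESmut-GFP (0.17 ± 0.08, adjusted p = 0.12). SNHG5, host of SNORD50B and the SNHG member with most reads, went from 277 and 276 to 360.2 and 358 CPM and from 195 and 205 to 231 and 251 CPM. Its changes of 0.38 ± 0.05 and 0.27 ± 0.05 were both called, and the difference between them of -0.11 ± 0.07 was not (adjusted p = 0.27). SNHG7, SNHG20 and SNHG6 rose in Surv-GFP by 0.56 ± 0.09, 0.43 ± 0.11 and 0.24 ± 0.05, and of these SNHG7 also rose in SurvNESmut-GFP (0.44 ± 0.10). Exons of SNHG6, SNHG7, SNHG12 and SNHG20 overlap those of MCMDC2, FAM69B, TRNAU1AP and SEC14L1.

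**Figure D1:**
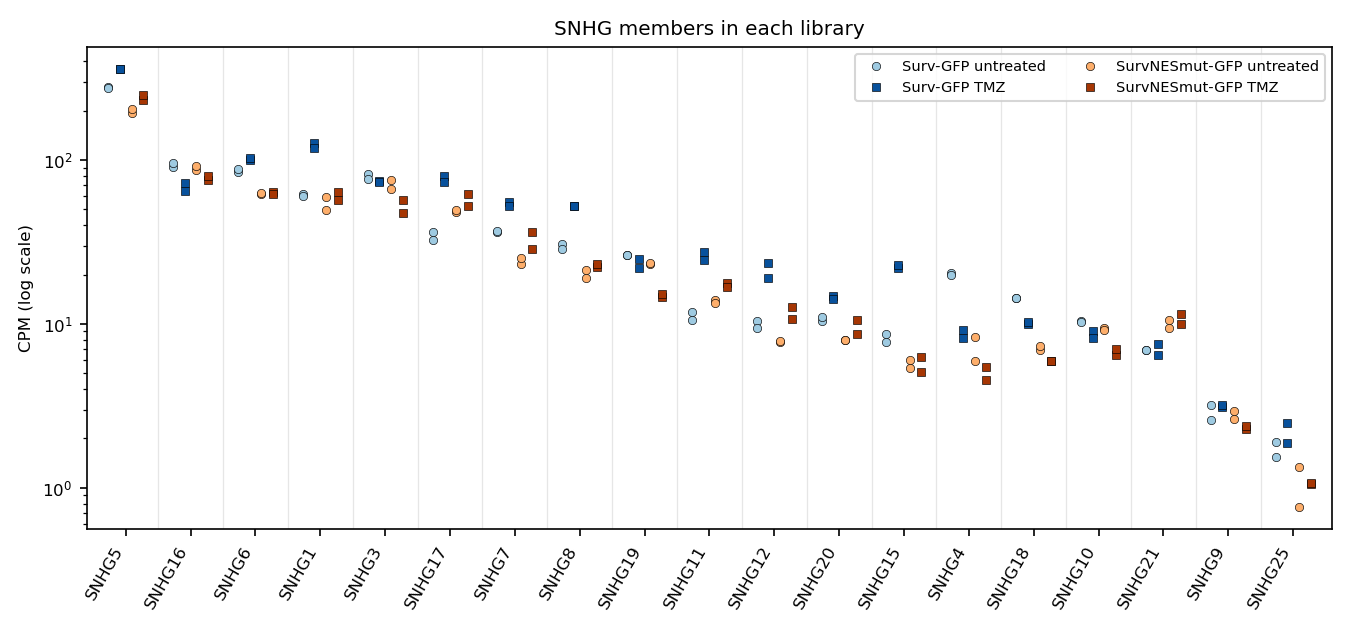
Level of the 19 SNHG members in each of the 8 libraries, as CPM on a log axis, with 1 point per library and the genes ordered by mean CPM. SNHG15, SNHG1, SNHG11 and SNHG17 are highest in the exposed Surv-GFP libraries (dark blue squares), and SNHG4 and SNHG18 are highest in the untreated Surv-GFP libraries.

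SNHG4, SNHG16 and SNHG18 fell in Surv-GFP cells. SNHG4, host of SNORA74A, went from 20.5 and 19.9 to 9.20 and 8.15 CPM in Surv-GFP (-1.22 ± 0.13, adjusted p = 5.4e-07) and from 8.35 and 5.94 to 5.44 and 4.54 CPM in SurvNESmut-GFP (-0.52 ± 0.17, adjusted p = 0.027). SNHG4 shares exons with MATR3, which also fell in Surv-GFP (-0.62 ± 0.05), and with SIL1. SNHG16, host of the SNORD1 genes, went from 90.8 and 96.5 to 72.4 and 64.3 CPM (-0.45 ± 0.06) and from 86.4 and 92.1 to 75.6 and 79.8 CPM (-0.20 ± 0.06). In SurvNESmut-GFP the call of SNHG4 was lost without untreated library a or exposed library b, and that of SNHG16 without untreated library b or exposed library a. SNHG18 went from 14.4 and 14.5 to 10.0 and 10.3 CPM in Surv-GFP (-0.50 ± 0.10), and its neighbour SEMA5A, 125 bp away, fell as well (-1.91 ± 0.08). In SurvNESmut-GFP, however, SEMA5A rose (0.61 ± 0.09), while SNHG18 was not called (-0.26, adjusted p = 0.14).

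SNHG19, SNHG3 and SNHG10 were called in SurvNESmut-GFP and not in Surv-GFP. SNHG19, host of SNORD60, stood at 23.1 and 23.6 CPM without and 14.6 and 15.2 CPM with TMZ in SurvNESmut-GFP (-0.65 ± 0.09, adjusted p = 3.3e-05), against 26.4 and 26.3 CPM without and 21.9 and 24.9 CPM with TMZ in Surv-GFP. SNHG3 and SNHG10 were lower there as well, with changes of -0.44 ± 0.08 and -0.47 ± 0.13 from 71.3 ± 6.31 and 9.33 ± 0.227 CPM, and the call of SNHG10 was lost without untreated or exposed library a. SNHG9, SNHG21 and SNHG25 were called in neither clone, and SNHG9 and SNHG25 had the fewest reads of the family. In all, 5 SNHG members were called higher and 5 lower in SurvNESmut-GFP, where 18.6% of all tested genes were called higher and 19.1% lower, and their median log2 fold change was 0.03. Without untreated or exposed library a of this clone, 3 were called higher and 3 lower, and without exposed library b 7 higher and 4 lower, the exposed libraries being those that differed most from each other.

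Among the 15 SNHG members with a window, a TOP tract was found both in some that rose and in some that fell. SNHG15 and SNHG6, which rose in Surv-GFP, had no window and are left out here. Whether the tract bears on the direction of change was not tested. Among the 9 members with a tract, 5 rose and 3 fell in Surv-GFP, with a median log2 fold change of 0.38, and among the 6 members without, 3 rose and none fell, with a median of 0.23. In SurvNESmut-GFP, 4 rose and 3 fell among those with a tract, and 1 rose and 2 fell among those without. The shares over all tested genes were 30.1% higher and 28.9% lower in Surv-GFP, and 18.6% and 19.1% in SurvNESmut-GFP. The 11-base tract of SNHG12 and the 13-base tract of SNHG4 belonged to members with opposite changes.

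The next comparison asks whether the response to TMZ differed between the clones, as the log2 fold change in SurvNESmut-GFP minus that in Surv-GFP. This difference was called lower for 9 and higher for 2 SNHG members, where 20.2% and 16.6% of all tested genes were called, and its median was -0.30. Without exposed library b of Surv-GFP, 6 were lower and 0 higher, and without any other library 6 to 10 were lower and 1 or 2 higher. For 7 SNHG members both TMZ effects were called, each in the same direction, and for 5 of these 7 the difference was called, with the smaller change in SurvNESmut-GFP. The change was also smaller there for 87.4% of all tested genes called alike in both clones with the difference called (1139 of 1303). For SNHG16 (0.25 ± 0.09) and SNHG4 (0.70 ± 0.22) the positive difference went with a weaker fall in SurvNESmut-GFP, and for SNHG19 (-0.48 ± 0.12) and SNHG3 (-0.33 ± 0.11) the negative difference went with a fall in SurvNESmut-GFP alone.

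SNHG RNA also differed between the clones without drug. Of the 19 members, 9 were lower and 3 higher in untreated SurvNESmut-GFP than in untreated Surv-GFP cells, where 29.4% and 34.7% of all tested genes were called, with a median log2 fold change of -0.35. With library size alone as scaling, 13 were lower and 2 higher. With TMZ, 16 were lower and 2 higher, where 34.7% and 34.5% of all tested genes were called, and the median was -0.65. Summed SNHG RNA stood at 666 ± 28.5 CPM without and 698 ± 12.3 CPM with TMZ in SurvNESmut-GFP, below both groups of Surv-GFP. SNHG15, SNHG8, SNHG25 and SNHG1 differed most under TMZ, by -1.98 ± 0.12, -1.21 ± 0.07, -1.02 ± 0.31 and -1.02 ± 0.07. SNHG21, which shares exons with FSD2, was higher in SurvNESmut-GFP without and with TMZ (0.53 ± 0.13 and 0.61 ± 0.13), and SNHG16 was higher with TMZ (0.18 ± 0.06). Under TMZ the call of SNHG25 was lost without library b of Surv-GFP, and that of SNHG16 without library b of either clone. The comparisons share groups and are therefore not independent of each other.

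The snoRNA genes inside the hosts have count rows of their own, which the selection of members did not use. All 395 snoRNA and scaRNA rows together held 1470 to 2384 counts per library. Reads of mature snoRNA and of unspliced host RNA cannot be told apart on these rows. For SNHG1, the 6 snoRNA rows annotated inside the host summed to 157 and 162 counts in untreated and 112 and 93 counts in exposed Surv-GFP cells, or 8.72 ± 0.31 and 5.66 ± 0.46 CPM, while the host rose. The same sum stood at 7.11 ± 0.07 CPM without and 5.26 ± 1.82 CPM with TMZ in SurvNESmut-GFP, where the host was not called. All 395 rows together stood at 124 ± 7.80 and 111 ± 0.72 CPM in Surv-GFP and at 96.2 ± 3.15 CPM without and 112 and 92.7 CPM with TMZ in SurvNESmut-GFP. Of these rows SNORD22 (-0.69, adjusted p = 0.02) and SNORD25 (-0.82, adjusted p = 0.02) fell, and SNORD26, SNORD27, SNORD28 and SNORD30 were not called. In the same comparison SNORD87, inside SNHG6, fell by 0.77 on the log2 scale (adjusted p = 0.041), while SNHG6 rose.

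Other snoRNA rows differed between the clones. SNORD104, inside SNHG25, had 136 and 98 counts in untreated Surv-GFP and 59 and 44 counts in untreated SurvNESmut-GFP cells (-1.18, adjusted p = 8.8e-05), and under TMZ it was lower in SurvNESmut-GFP by 1.58 on the log2 scale (adjusted p = 2.7e-06). SNHG25 itself differed by -0.72 ± 0.32 (adjusted p = 0.057) and -1.02 ± 0.31 (adjusted p = 0.0076). SNORA73B, inside SNHG3, was lower in untreated SurvNESmut-GFP (-0.77, adjusted p = 0.0026), with 46 and 42 counts against 77 and 74. Inside SNHG12, SNORA44 had 23 and 21 counts in untreated Surv-GFP and 8 and 9 counts in untreated SurvNESmut-GFP cells (-1.35, adjusted p = 0.0035), and in SurvNESmut-GFP it rose with TMZ to 18 and 14 counts (1.05, adjusted p = 0.042), as SNHG12 did. In Surv-GFP the 4 rows inside SNHG12 together gave 68 and 52 counts without and 59 and 57 counts with TMZ, and these groups overlapped.

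**Figure D2:**
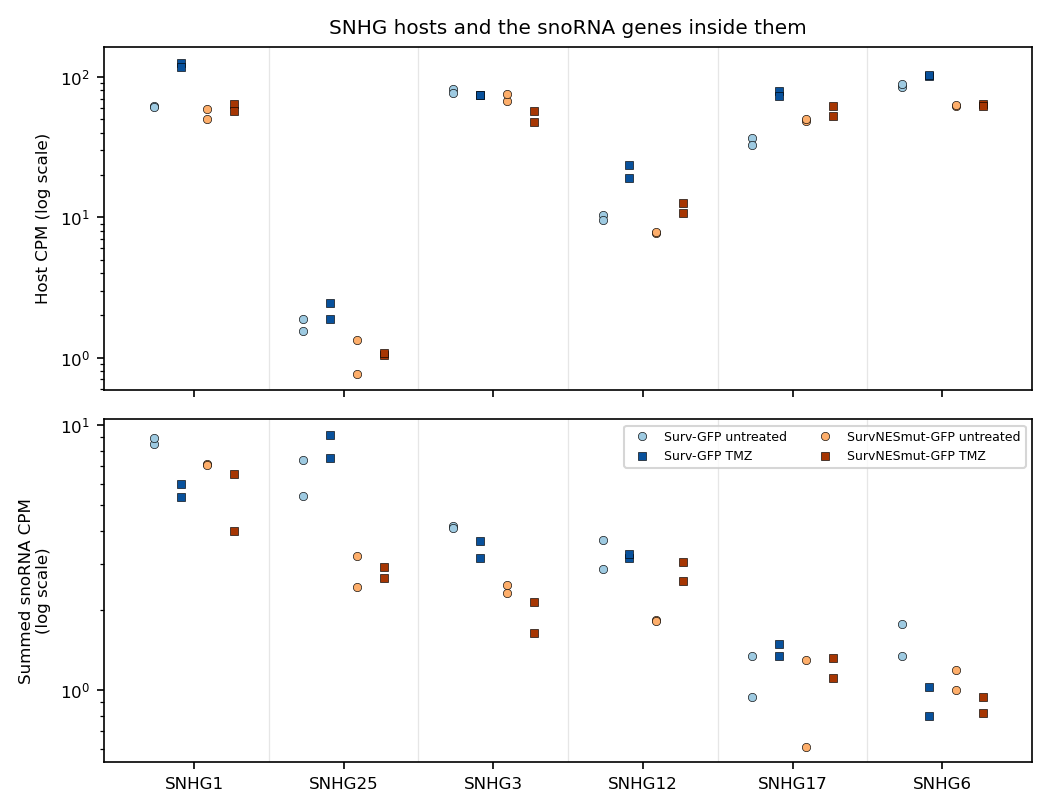
Upper panel, CPM of 6 SNHG hosts, and lower panel, summed CPM of the snoRNA rows inside each, both on log axes with 1 point per library. For SNHG1 the host is highest and the snoRNA sum is below the untreated libraries in exposed Surv-GFP cells, whereas for SNHG25 both are lower in SurvNESmut-GFP.

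Nonsense-mediated decay genes and other hosts were counted beside the family. Over all tested genes 30.1% were called higher and 28.9% lower in Surv-GFP, and 18.6% and 19.1% in SurvNESmut-GFP. For the difference between the TMZ effects 16.6% were called higher and 20.2% lower. Of 26 nonsense-mediated decay genes, 12 rose and 2 fell in Surv-GFP, among them SMG5 (0.62 ± 0.05), MAGOH (0.65 ± 0.06) and DHX34 (0.82 ± 0.08), and 5 rose and 5 fell in SurvNESmut-GFP, with the difference called lower for 10 and higher for 1. Of 29 genes of snoRNP assembly and snoRNA processing, 11 rose and 6 fell in Surv-GFP, such as GAR1 (0.53 ± 0.07), a protein of box H/ACA particles, and 4 rose and 5 fell in SurvNESmut-GFP. Of 47 protein-coding snoRNA hosts, 14 rose and 10 fell in Surv-GFP, with HSPA8 (-0.99 ± 0.06) and TAF1D (0.56 ± 0.08) as examples, and 2 rose and 11 fell in SurvNESmut-GFP. Of 29 other lncRNAs, 8 rose and 7 fell in Surv-GFP, and 5 rose and 7 fell in SurvNESmut-GFP. Among these were GAS5 and ZFAS1, snoRNA hosts without an SNHG symbol. GAS5 rose from 93.7 ± 1.36 to 346 ± 4.42 CPM in Surv-GFP (1.88 ± 0.05) and by 0.93 ± 0.05 in SurvNESmut-GFP, and ZFAS1 rose by 1.62 ± 0.06 and 0.56 ± 0.06. The median log2 fold change in Surv-GFP was 0.10 for the decay genes, 0.05 for the snoRNP genes, 0.04 for the protein-coding hosts and -0.06 for the other lncRNAs.

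The LINC members showed no common direction in Surv-GFP cells. TMZ raised 35 and lowered 34 of 157 (22.3% and 21.7%), and with the SNHG members this gives 45 higher and 37 lower of 176. The latter are 25.6% and 21.0% of the members, less than the 30.1% and 28.9% of all tested genes. A change of at least 2-fold among the called genes was seen for 33 of 176 members (18.8%), 28 of them LINC, against 10.5% of all tested genes. The summed counts of the LINC members had a median of 395. The 2-fold share among genes of similar counts was not computed, for this or the later comparisons. The log2 fold changes of the LINC members ranged from -2.29 to 5.03.

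LINC01583 and LINC00589 showed the highest log2 fold changes of all members. LINC01583 was at 0.271 and 0.221 CPM in untreated and 8.13 and 8.38 CPM in exposed Surv-GFP cells (5.03 ± 0.27, adjusted p = 1e-10), and at 4.01 and 4.33 CPM without and 8.24 and 7.12 CPM with TMZ in SurvNESmut-GFP cells (0.88 ± 0.15, adjusted p = 0.00023). The exposed groups of the clones overlapped, and the clones differed in the level without drug (4.05 ± 0.31). LINC00589 became a member only through the exposed Surv-GFP libraries, so that the direction of its rise there follows from the selection. Its values are therefore a description. LINC00589 went from 0.108 and 0.166 to 4.33 and 4.99 CPM in Surv-GFP (5.02 ± 0.36) and from 0.217 and 0.278 to 1.23 and 1.51 CPM in SurvNESmut-GFP (2.43 ± 0.42, adjusted p = 0.00026). Untreated levels of LINC00589 rest on 2 to 5 counts per library, and the difference between its TMZ effects (-2.59 ± 0.76) was not called without untreated library a of Surv-GFP or untreated library b of SurvNESmut-GFP.

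LINC01021 (PURPL), the member with a p53 element in its promoter window, rose in both clones. Its counts were 5 and 5 in untreated and 35 and 40 in exposed Surv-GFP cells, and 70 and 58 without and 174 and 168 with TMZ in SurvNESmut-GFP cells. The changes were 2.89 ± 0.36 (adjusted p = 3.3e-06) and 1.56 ± 0.15 (adjusted p = 7.4e-07), and the level was higher in SurvNESmut-GFP without (3.65 ± 0.32) and with TMZ (2.32 ± 0.17). The 4 groups did not overlap in CPM. Over all tested genes 30.1% were called higher and 28.9% lower in Surv-GFP, and 18.6% and 19.1% in SurvNESmut-GFP. Of 6 tested lncRNAs linked to p53, LINC01021 included, 5 rose and 1 fell in each clone. Among them, NEAT1 rose by 0.25 ± 0.05 and 0.21 ± 0.05, and TP53TG1 by 0.42 ± 0.11 and 0.55 ± 0.13, while TUG1 fell by 0.34 ± 0.05 and 0.24 ± 0.05 on the log2 scale. NEAT1, TP53TG1 and TUG1 also stand among the other lncRNAs counted above. CDKN1A, the p53 target gene for p21, was at 81.9 ± 6.60 and 941 ± 47.8 CPM in Surv-GFP and at 118 ± 1.07 and 460 ± 44.6 CPM in SurvNESmut-GFP without and with TMZ.

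Several other LINC members rose more in Surv-GFP than in SurvNESmut-GFP. LINC00460 went from 6.503 and 6.95 to 27.1 and 25.1 CPM in Surv-GFP (1.96 ± 0.11) and from 7.32 and 7.67 to 12.4 and 10.6 CPM in SurvNESmut-GFP (0.62 ± 0.12). LINC00941 went from 1.90 and 1.21 to 7.59 and 7.63 CPM (2.28 ± 0.21) and from 2.66 and 2.78 to 6.25 and 4.73 CPM (1.02 ± 0.20). LINC01291 went from 0.163 and 0.166 to 3.16 and 2.07 CPM (3.94 ± 0.42) and from 1.52 and 1.33 to 4.56 and 4.03 CPM (1.59 ± 0.24). These 3 RNAs were called higher in both clones, and the difference between the TMZ effects was -1.34 ± 0.17, -1.26 ± 0.31 and -2.36 ± 0.56.

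LINC00707 differed from these in its untreated level. It was at 2.11 and 3.09 CPM in untreated Surv-GFP cells and at 16.7 and 15.3 CPM after TMZ (2.62 ± 0.16, adjusted p = 5.6e-10). In SurvNESmut-GFP cells it was at 17.4 and 18.4 CPM without and 19.1 and 16.3 CPM with TMZ (-0.02 ± 0.11, adjusted p = 0.93). The untreated groups did not overlap, whereas the exposed groups did. LINC01239, in contrast, was higher in Surv-GFP before exposure (21.5 and 18.5 against 3.20 and 2.94 CPM) and rose further to 38.7 and 45.1 CPM (1.06 ± 0.10), while it was not called in SurvNESmut-GFP (1.99 and 3.09 CPM with TMZ, -0.29 ± 0.25, adjusted p = 0.39).

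**Figure D3:**
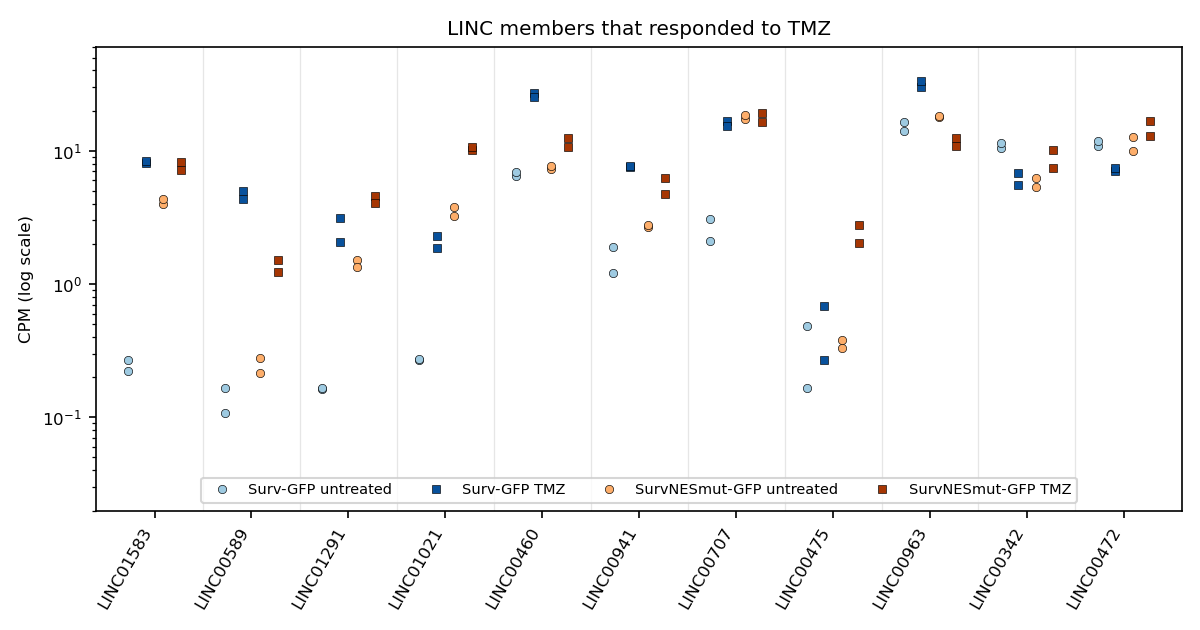
CPM of 11 LINC members in each library on a log axis, with 1 point per library. LINC01583, LINC00589, LINC01291, LINC01021, LINC00460 and LINC00941 are higher in exposed (squares) than in untreated cells (circles) of both clones, whereas LINC00963, LINC00342 and LINC00472 move in opposite directions.

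LINC00963, LINC00342 and LINC00472 were called in opposite directions in the clones. LINC00963 rose from 16.4 and 14.1 to 30.0 and 33.2 CPM in Surv-GFP (1.05 ± 0.09, adjusted p = 7.8e-08) and fell from 17.9 and 18.3 to 10.9 and 12.4 CPM in SurvNESmut-GFP (-0.64 ± 0.11, adjusted p = 0.00022). LINC00342 fell from 10.6 and 11.4 to 5.56 and 6.83 CPM (-0.83 ± 0.16) and rose from 5.31 and 6.22 to 10.1 and 7.38 CPM (0.61 ± 0.17) in the same order. LINC00472 fell from 10.8 and 11.9 to 7.06 and 7.40 CPM (-0.65 ± 0.15) and rose from 9.92 and 12.8 to 16.7 and 12.9 CPM (0.39 ± 0.14). The differences were -1.69 ± 0.14, 1.43 ± 0.23 and 1.03 ± 0.21 (adjusted p = 2.1e-07, 0.00013 and 0.00093). The rise of LINC00342 and of LINC00472 in SurvNESmut-GFP was no longer called without untreated or exposed library a of that clone.

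In the members as a whole, 34 were called in both clones, of which 31 (91.2%) changed in the same direction, 18 up and 13 down, against 85.8% of the genes called in both among all tested genes. A further 48 (27.3%) were called in Surv-GFP alone and 17 (9.66%) in SurvNESmut-GFP alone, near the 31.4% and 10.2% of all tested genes. For 25 of these 48 (52.1%) the difference between the TMZ effects was called as well, against 57.7% of all tested genes called in Surv-GFP alone. In SurvNESmut-GFP 29 members were called higher and 22 lower (16.5% and 12.5%), against 18.6% and 19.1% of all tested genes. Of the members 12 (6.82%) changed at least 2-fold, against 4.13% of all tested genes. Without untreated library b of this clone 14 were called lower, and without exposed library a or b 24 and 31 were higher and 17 and 26 lower. In the difference, 19 members were called higher and 31 lower (10.8% and 17.6%), against 16.6% and 20.2% of all tested genes. Both with library size alone as scaling and with a filter of 1 CPM in 2 libraries, 27 members were higher and 26 lower. Without untreated library b of Surv-GFP or untreated library a of SurvNESmut-GFP 11 were called higher. Of the members, 23 (13.1%) were called with a difference of at least 2-fold, against 5.49% of all tested genes.

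**Figure D4:**
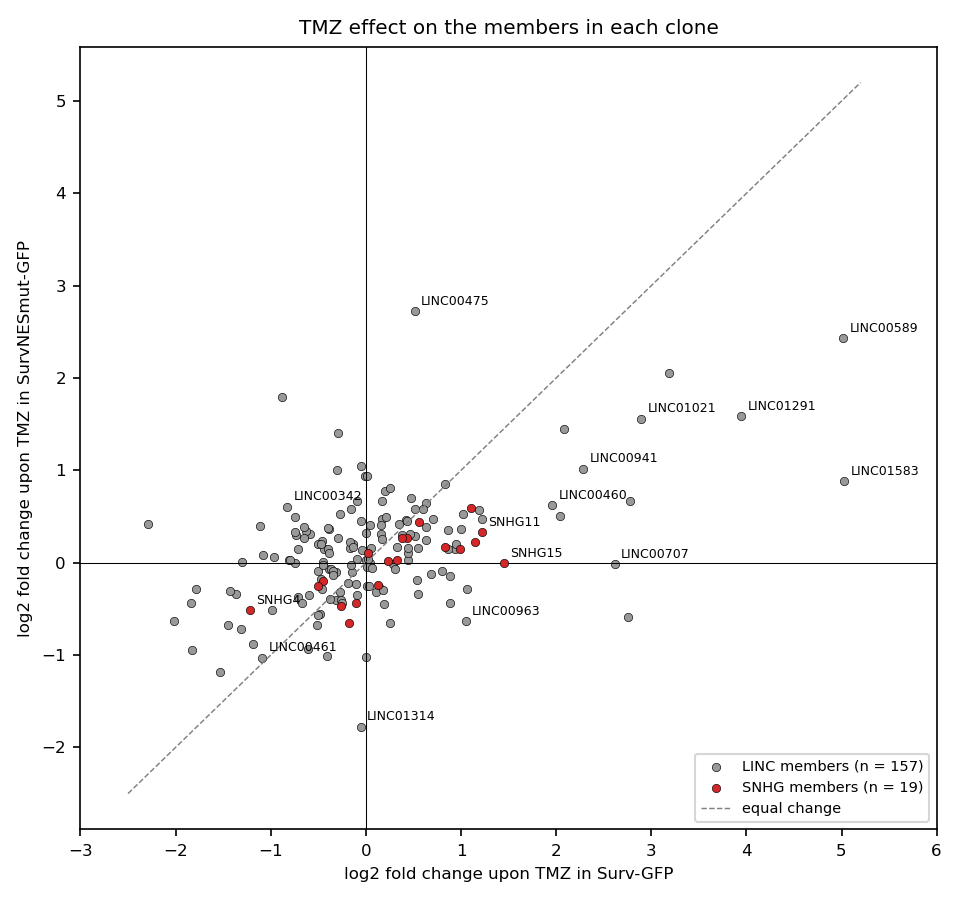
Log2 fold change upon TMZ in Surv-GFP (horizontal) and SurvNESmut-GFP (vertical) for the 157 LINC members (grey) and 19 SNHG members (red), with a dashed line of equal change. LINC01583 and LINC00589 lie far to the right and below the line, and LINC00475 lies high on the vertical axis.

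Among the LINC members that fell in both clones were LINC00461 and LINC00657. LINC00461 (MIR9-2HG), the host of a miR-9 precursor, went from 11.9 and 12.4 to 5.72 and 5.68 CPM in Surv-GFP (-1.09 ± 0.13) and from 7.64 and 7.72 to 3.33 and 4.22 CPM in SurvNESmut-GFP (-1.03 ± 0.15). LINC00657 (NORAD), which took 18.8% of all reads on members, went from 470.4 and 463 to 368 and 353 CPM (-0.37 ± 0.05, adjusted p = 3.8e-06) and from 565 and 562 to 419 and 441 CPM (-0.39 ± 0.05, adjusted p = 6.3e-06). The difference between the TMZ effects was 0.06 ± 0.21 (adjusted p = 0.85) for LINC00461 and -0.02 ± 0.07 (adjusted p = 0.86) for LINC00657.

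LINC01212, LINC01389, LINC01301 and LINC01279 also fell in Surv-GFP. LINC01212 (SAMMSON), known from melanoma, went from 2.76 and 3.37 to 0.802 and 0.918 CPM in Surv-GFP (-1.83 ± 0.27) and was at 0.868 and 0.778 CPM without and 0.526 and 0.315 CPM with TMZ in SurvNESmut-GFP (-0.94 ± 0.43, adjusted p = 0.097). It became a member only through the untreated Surv-GFP libraries, so that the direction of its fall there follows from the selection. The changes of LINC01389 and LINC01301 in Surv-GFP were -1.45 ± 0.20 and -1.42 ± 0.23. LINC01389 was also called in SurvNESmut-GFP (-0.68 ± 0.21), though not without either untreated library or exposed library a of this clone. LINC01279, whose symbol now refers to CCDC80, fell from 1.57 and 2.10 to 0.535 and 0.517 CPM in Surv-GFP (-1.79 ± 0.33) and was not called in SurvNESmut-GFP (-0.28 ± 0.21, adjusted p = 0.32).

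Some LINC members were called in SurvNESmut-GFP and were not called or changed less in Surv-GFP. LINC00475 became a member only through the exposed SurvNESmut-GFP libraries and LINC01314 only through the untreated ones. The direction of their changes there follows from the selection, and their values are a description. LINC00475 was at 0.380 and 0.333 CPM in untreated and 2.05 and 2.77 CPM in exposed SurvNESmut-GFP cells (2.73 ± 0.42), against 0.488 and 0.166 CPM without and 0.267 and 0.689 CPM with TMZ in Surv-GFP (0.51 ± 0.61, adjusted p = 0.49). LINC01314 (CTXND1, protein-coding in RefSeq) went from 2.06 and 2.33 to 0.760 and 0.504 CPM in SurvNESmut-GFP (-1.78 ± 0.33) and was at 0.488 and 0.662 CPM without and 0.428 and 0.689 CPM with TMZ in Surv-GFP, where it was not called. LINC00473, a cAMP-responsive lncRNA, fell from 13.4 and 13.8 to 6.20 and 7.38 CPM in SurvNESmut-GFP (-1.01 ± 0.12) and from 16.8 and 17.99 to 13.2 and 13.1 CPM in Surv-GFP (-0.40 ± 0.10). LINC00888, now named SNHG33, fell in SurvNESmut-GFP (-0.45 ± 0.12, adjusted p = 0.0084) and was not called in Surv-GFP (0.19 ± 0.09, adjusted p = 0.081), and its fall was not called without untreated library a of SurvNESmut-GFP.

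LINC genes with a described function were counted as a list that was written with results of these data known. Of its 18 tested genes, 10 rose and 5 fell in Surv-GFP with a median log2 fold change of 0.33, and 7 rose and 5 fell in SurvNESmut-GFP with a median of 0.13. The shares over all tested genes were 30.1% higher and 28.9% lower in Surv-GFP, and 18.6% and 19.1% in SurvNESmut-GFP. LINC00467, LINC00662, LINC00665 and LINC00174 rose in both clones, with changes of 0.52, 0.60, 0.35 and 0.84 on the log2 scale in Surv-GFP and 0.58, 0.59, 0.41 and 0.85 in SurvNESmut-GFP. LINC00174 kept both calls whichever library was left out, whereas the other 3 lost the call in SurvNESmut-GFP without untreated library b of this clone. LINC00467 and LINC00665 also lost it in Surv-GFP without library b of either exposure. LINC00152 (CYTOR) rose in Surv-GFP (0.44 ± 0.09) and was higher in SurvNESmut-GFP without drug (26.4 ± 2.40 against 14.4 ± 0.688 CPM). Of the members that encode small mitochondrial or membrane proteins, LINC00116 (mitoregulin) and LINC00493 (SMIM26) rose in Surv-GFP (0.44 ± 0.10 and 0.30 ± 0.07), and LINC00998 (SMIM30) fell in both clones (-0.19 ± 0.07 and -0.22 ± 0.07). The call of LINC00998 was lost in Surv-GFP when any 1 of the 4 libraries of this clone was left out and in SurvNESmut-GFP without untreated library b or exposed library a. LINC00511 and LINC01116 were called in neither clone upon TMZ, nor was LINC01000.

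The clones were compared without drug to see how they differed at the outset. Of 176 members, 45 were higher and 56 lower in untreated SurvNESmut-GFP, and 44 differed at least 2-fold, against 15.6% of all tested genes. With TMZ, 48 members were higher and 61 lower (27.3% and 34.7%), against 34.5% and 34.7% of all tested genes, and 56 (31.8%) differed at least 2-fold, against 18.2%. Among the LINC members 42 were higher and 47 lower without TMZ (26.8% and 29.9%). With TMZ, 46 of them were higher and 45 lower (29.3% and 28.7%). For 77 members the difference was called at both exposures, and 35 of these were higher and 36 lower in SurvNESmut-GFP each time, while 6 changed sides, SNHG11, SNHG17, LINC00941, LINC01578, LINC00342 and LINC00963. The share of all tested genes called at both exposures was not computed. The untreated call of LINC00963 was lost when any 1 library except untreated library a of Surv-GFP was left out, and calls of LINC00941 and LINC00342 were lost without 1 of several libraries.

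Both exposures showed a fitted difference of at least 16-fold, higher in SurvNESmut-GFP, for 9 LINC members, of which those other than LINC00221, LINC00839 and LINC01419 were singled out after their values were seen. Their counts in Surv-GFP sum to less than the minimum of 80, so that they became members only through the SurvNESmut-GFP libraries and the direction of the difference follows from the selection. The values are therefore a description. LINC00221, on chromosome 14, had 0 counts in all 4 Surv-GFP libraries and 459 and 481 counts in untreated and 441 and 428 counts in exposed SurvNESmut-GFP libraries. This makes it at least 314-fold higher without and at least 317-fold higher with TMZ, set against a floor of 3 counts over the group. LINC01419 was likewise at 0 in Surv-GFP and had 119 and 103 counts without and 50 and 49 counts with TMZ in SurvNESmut-GFP, which is at least 74.3-fold and 36.2-fold higher. Within SurvNESmut-GFP LINC01419 fell upon TMZ (-1.02 ± 0.19, adjusted p = 0.00063), whereas LINC00221 was not called (0.03 ± 0.09, adjusted p = 0.81). Floors and intervals cover counting error only.

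LINC00839 had 3 and 0 counts in untreated and 2 and 1 counts in exposed Surv-GFP libraries, against 233 and 170 counts without and 159 and 146 counts with TMZ in SurvNESmut-GFP. The ratio of counts was 135 without TMZ (95% interval, 45.8 to 656). For LINC01605 the 4 Surv-GFP libraries held 0 to 3 counts each and the SurvNESmut-GFP libraries 60 to 106, a ratio of 82.3 without TMZ (22.4 to 685). LINC00654, LINC00552, LINC00942 and LINC00317 held at most 3 counts in any Surv-GFP library and 15 to 50 counts in each SurvNESmut-GFP library, with ratios of 43.7, 58.2, 57.2 and 20.1 without TMZ. Their intervals reached down to 11.7, 10.0, 9.86 and 6.55. LINC01119, with 5 to 12 counts in Surv-GFP libraries, differed by 4.17 ± 0.32 without and 4.03 ± 0.36 with TMZ, and LINC00960, which also became a member through SurvNESmut-GFP, by 4.57 ± 0.30 and 3.68 ± 0.27.

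LINC01152, LINC01239 and LINC00673 were lower in SurvNESmut-GFP. LINC01152 became a member only through the Surv-GFP libraries, so that the direction of its difference follows from the selection and its values are a description. It had 32 and 24 counts in untreated Surv-GFP and 1 and 2 counts in untreated SurvNESmut-GFP libraries, a ratio of 18.6 (6.05 to 92.9), and under TMZ 16 and 14 against 5 and 5 counts. It shares exons with SOX9-AS1, and its difference under TMZ was not called without exposed library a of SurvNESmut-GFP. LINC01239 differed by -2.70 ± 0.16 without and -4.05 ± 0.15 with TMZ. LINC00673 was at 178 ± 0.0924 and 136 ± 4.54 CPM in Surv-GFP and at 68.2 ± 1.06 and 65.3 ± 0.0504 CPM in SurvNESmut-GFP without and with TMZ, and differed by -1.38 ± 0.05 (adjusted p = 5.8e-13) in untreated cells. LINC00920 was lower in SurvNESmut-GFP as well (-1.72 ± 0.18 without TMZ), while LINC01234 was higher (1.23 ± 0.11 without and 1.53 ± 0.10 with TMZ). LINC00888 (SNHG33) was lower in SurvNESmut-GFP, with differences of -0.88 ± 0.10 without and -1.53 ± 0.11 with TMZ.

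**Figure D5:**
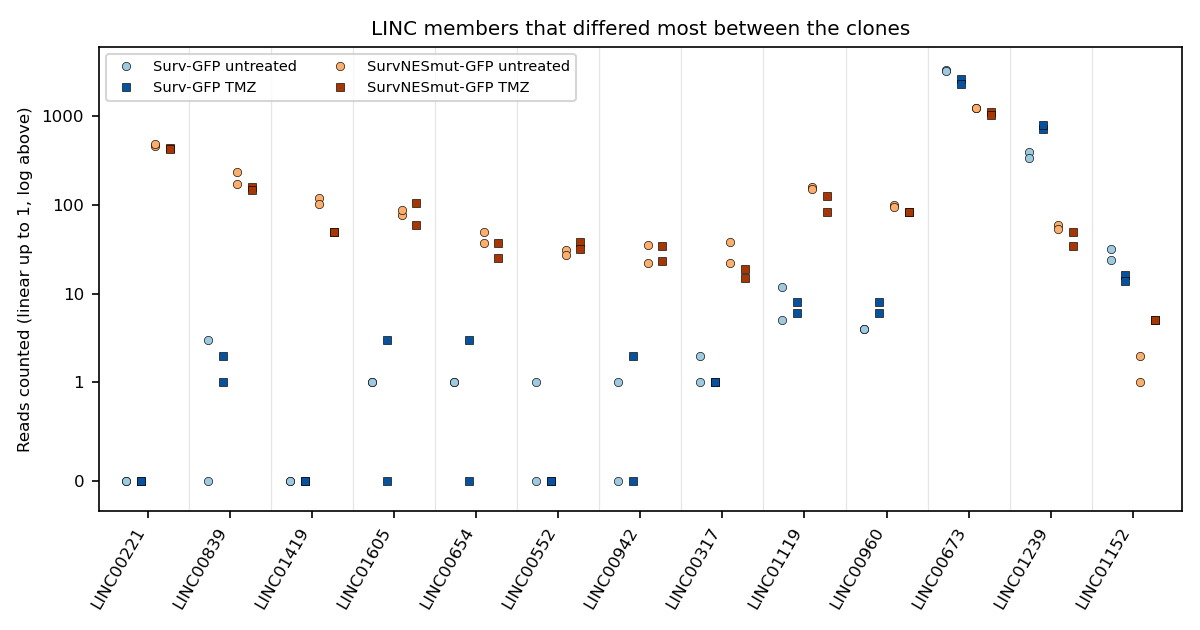
Reads counted in each library for 13 LINC members that differed between the clones, on an axis that is linear up to 1 and logarithmic above. LINC00221 and LINC01419 lie at 0 in all Surv-GFP libraries (blue), and LINC00673, LINC01239 and LINC01152 are lower in SurvNESmut-GFP (orange and brown).

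Protein-coding neighbours were compared with the members. For 66 members the nearest protein-coding gene overlaps or lies within 10 kb and was tested. In Surv-GFP, both were called for 25 of these, and they changed in the same direction in 18 (72.0%), and in SurvNESmut-GFP in 7 of 11 (63.6%). The clone difference had the same direction in 16 of 23 pairs (69.6%) without and 19 of 33 pairs (57.6%) with TMZ, and the share among other neighbouring genes was not computed. SNHG1 lies 224 bp from SLC3A2, an amino acid transporter subunit, which rose by 1.89 ± 0.05 in Surv-GFP, beside 0.99 ± 0.07 for SNHG1. Upon TMZ neither was called in SurvNESmut-GFP. Without drug SLC3A2 was higher in SurvNESmut-GFP than in Surv-GFP (1.74 ± 0.05), while SNHG1 was not called (-0.17, adjusted p = 0.063). SNHG7 and SNHG12 rose in Surv-GFP while FAM69B (-1.46 ± 0.14) and TRNAU1AP (-0.47 ± 0.11), with which they share exons on the opposite strand, fell. Members whose exons overlap those of the neighbour are among the pairs counted here.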

How the data were processed

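The authors deposited whole-number read counts per gene symbol for the 8 libraries, without normalization. Beside them stood 2 rows that name no gene, labelled no_feature and ambiguous. They held 11.3 to 14.3% and 1.19 to 1.28% of all counts, these 2 rows included, and were left out. The submitters' processing notes name STAR 2.5.0b, Cufflinks 2.2.1 and edgeR. The sources used here give no build, annotation, strand or counting program. The authors' 5 comparison tables (log2 fold change, log2 CPM, F, p and FDR) were not used. Groups were taken from the sample titles.

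The deposited counts entered edgeR 4.0.16 under R 4.3.3 (quasi-likelihood F test in its legacy form, TMM, filter on low counts by group) in 1 model with 4 group means, which left 14201 genes, and 5 contrasts. DESeq2 1.42.0 was an alternative. In simulated data of the TMZ effect in Surv-GFP, 181 of 200 changed genes were recovered and 16 of the others were called, among 13969 genes. With 15826923 to 18861603 counts per library, a gene at 0 allows up to 3 counts.

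The members, lists and tests were chosen with earlier results of these data known. Named were all SNHG members, per contrast the 4 LINC members with the smallest p in each direction (at least 2-fold, groups not overlapping), the LINC members with a described function and the 3 with the highest mean CPM. For the difference between the TMZ effects, the groups were not required to be free of overlap. Alternatives were other size factors, other filters, DESeq2, the edgeR 4 method, the replicate letter as a term, only the 4 libraries compared, each library left out, and a minimum of 40 or 160 counts. Annotation and sequences are from RefSeq (GRCh38.p14) and GENCODE 29, matched by symbol.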

Additional observations from a re-analysis of the deposited data

Results flagged for a closer look

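Named members whose response to TMZ differed between the clones by the test of the difference (log2 fold change in SurvNESmut-GFP minus that in Surv-GFP, adjusted p of 0.05 or less) are given with this difference. Members with at most 3 counts in a group were left out. In the SNHG family the difference was -1.45 for SNHG15, -0.92 for SNHG17, -0.89 for SNHG11, -0.85 for SNHG1, -0.65 for SNHG8, -0.51 for SNHG12, -0.48 for SNHG19, -0.33 for SNHG3 and -0.22 for SNHG6. It was positive for SNHG4 (0.70) and SNHG16 (0.25).

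Among the LINC members the difference was -4.15 for LINC01583, -2.63 for LINC00707, -2.59 for LINC00589, -2.36 for LINC01291, -1.72 for LINC01314, -1.69 for LINC00963, -1.35 for LINC01239, -1.34 for LINC00460, -1.33 for LINC01021 and -1.26 for LINC00941. Smaller negative differences were found for LINC00888 (-0.65), LINC00473 (-0.60), LINC00493 (-0.37) and LINC00152 (-0.33). Positive differences were found for LINC00475 (2.21), LINC01279 (1.51), LINC00342 (1.43), LINC01301 (1.11), LINC00472 (1.03) and LINC00673 (0.33). LINC00589, LINC00475 and LINC01314 became members only through the group where each was high, so that their values are a description.

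Calls of this difference depended on single libraries for 12 of these members. SNHG19 lost the call without Surv-GFP TMZ b alone, and LINC00589 without Surv-GFP untreated a or SurvNESmut-GFP untreated b. LINC01021 lost it without Surv-GFP untreated a or b, Surv-GFP TMZ b or SurvNESmut-GFP untreated a. SNHG16 lost it without Surv-GFP untreated b, Surv-GFP TMZ b, SurvNESmut-GFP untreated a or SurvNESmut-GFP TMZ b. SNHG4 lost it without Surv-GFP untreated a, Surv-GFP TMZ b, SurvNESmut-GFP untreated b or SurvNESmut-GFP TMZ a, and LINC01314 without the first 3 of these or SurvNESmut-GFP TMZ b. LINC00152, LINC00475, LINC01301, SNHG3, SNHG6 and SNHG12 each lost it on leaving out any of 5 or 6 libraries. Each group holds 2 libraries, so that single values that stand apart from their group could not be looked for.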

How the results depend on the processing

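With DESeq2, 18 members were called higher upon TMZ in SurvNESmut-GFP in place of 29, and 10 were called higher in the difference between TMZ effects in place of 19. With 1 library left out, the members called lower in SurvNESmut-GFP upon TMZ numbered 14 to 26, with 14 without the untreated SurvNESmut-GFP replicate b, and those called higher in the difference numbered 11 to 19, with 11 without the untreated Surv-GFP replicate b or the untreated SurvNESmut-GFP replicate a. The cause was not tested, and the latter alternatives also hold fewer samples. All other counts of members called stayed within 1.5 times under each alternative, as did the number of members, 214 at a minimum of 40 and 133 at a minimum of 160. Over all tested genes, same-lettered libraries did not deviate together (r between -0.07 and 0.08). Such a correlation cannot exclude a pairing that acts on some genes only. With the replicate block 45 members were higher and 36 lower upon TMZ in Surv-GFP, and no call count moved by more than 1.5 times. The SNHG count of 10 called higher in Surv-GFP was the same in each of 16 alternatives run for it. Of 4653 values of named members under alternatives, 4362 kept direction and call, 209 lost and 82 gained the call, and no called value changed sign.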
